A study of Mus musculus with 4 samples.

Results

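The 10 histone deacetylase (HDAC) genes Hdac1, Hdac2, Hdac3, Hdac4, Hdac5, Hdac6, Hdac7, Hdac8, Hdac10 and Hdac11 were taken by exact name from a table of 24497 features, and all 10 were found in it. Sums, shares and class counts cover these 10 genes alone, and the rest of the HDAC family was not analysed here. They were followed in poly(A) RNA of splenic cells in a transplant model of acute myeloid leukaemia driven by the fusion gene MLL-AF9. According to the design text of the series, leukaemic CD45.2+ bone marrow cells of primary mice were given to secondary recipients irradiated with 320 rads. Such a sublethal dose may leave some host blood cells in place. From a week after transplantation the recipients received CS1, which the labels call an FTO inhibitor (FTO removes methyl groups from adenosines in RNA), at 5 mg/kg, or PBS, intraperitoneally on alternate days for 20 days. Both groups therefore carried leukaemia of the same model and had the same irradiation, and the difference that the labels name is CS1. After lysis of red cells, CD45.2-bearing cells were pulled from the spleen suspension with a biotinylated antibody and beads. Each group had 2 libraries. No source used here gives the mouse strain or says that each library came from its own animal, so p-values measure the spread between these libraries, which may be technical. For CS1 replicate 2 the label for treatment says CS2, whereas its title and description say CS1, and it was kept in the CS1 group.

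Histone deacetylases remove acetyl groups from lysines of histones and of many other proteins, and on chromatin this is linked to repression of transcription. The class I enzymes Hdac1, Hdac2, Hdac3 and Hdac8 are mainly nuclear, and all but Hdac8 act inside large corepressor complexes. The class IIa proteins, among them Hdac4, Hdac5 and Hdac7, have little deacetylase activity of their own, bind MEF2 transcription factors and move between nucleus and cytoplasm. Hdac6 and Hdac10 form class IIb, with tubulin and acetylated polyamines as their best known substrates, and Hdac11 is the single class IV enzyme. HDAC-containing corepressor complexes are recruited by several leukaemia fusion proteins, and HDAC inhibitors are used in blood cancers.

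Levels are given as TPM, a length-normalised share of the library's transcripts that can be compared between genes. The deposited values were taken as TPM; the columns summed to 977973 to 986345, and the read depth is unknown. CS1 was compared with PBS by limma on log2(TPM + 1) over the 11866 features that reached 1 TPM in 2 or more libraries. P-values were adjusted over all of them by Benjamini-Hochberg, and a feature was called where the adjusted p was below 0.05. Because fold changes are on this log2(TPM + 1) scale, those of low genes are understated. Of all tested features 67.0% were called, 35.3% as higher and 31.6% as lower in CS1, and the groups did not overlap for 84.4%. The balance of directions depended on scaling, with 3633 features higher and 4328 lower under trimmed-mean (TMM) scaling and 3844 higher and 3990 lower after quantile normalization.

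The promoter sequences of Hdac4, Hdac6 and Hdac11 are shown because these genes had the largest fall and the 2 largest rises among the 10. They are the 250 bases before the RefSeq transcription start (build GRCm38.p6), read 5′ to 3′ on the gene's own strand. Capitals mark the GC box, searched on both strands as GGGCGG. They also mark the box named for its letters CCAAT, likewise searched on both strands. The RefSeq starts of Hdac4 and Hdac11 lie inside the longer GENCODE models of these genes, which take in all 250 bases of the Hdac4 window and 150 of those of Hdac11.
Hdac4 (chr1:92180342-92180591, minus strand): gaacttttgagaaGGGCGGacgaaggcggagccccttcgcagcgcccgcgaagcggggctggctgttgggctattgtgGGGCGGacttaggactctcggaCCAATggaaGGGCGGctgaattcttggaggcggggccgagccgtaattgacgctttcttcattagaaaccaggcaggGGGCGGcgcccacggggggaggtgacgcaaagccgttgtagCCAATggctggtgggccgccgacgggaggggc
Hdac6 (chrX:7947890-7948139, minus strand): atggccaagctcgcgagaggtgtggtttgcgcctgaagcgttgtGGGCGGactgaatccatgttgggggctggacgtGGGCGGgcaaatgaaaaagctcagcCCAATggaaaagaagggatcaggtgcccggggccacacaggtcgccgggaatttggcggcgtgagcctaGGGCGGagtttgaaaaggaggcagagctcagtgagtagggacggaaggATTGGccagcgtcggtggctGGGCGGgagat
Hdac11 (chr6:91156565-91156814, plus strand): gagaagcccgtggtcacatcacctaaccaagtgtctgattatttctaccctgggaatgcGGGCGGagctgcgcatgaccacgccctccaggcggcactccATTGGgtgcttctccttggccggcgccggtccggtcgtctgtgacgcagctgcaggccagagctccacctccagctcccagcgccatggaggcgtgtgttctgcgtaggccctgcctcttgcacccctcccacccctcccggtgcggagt

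The Hdac4 and Hdac6 windows each held 4 GC boxes and 2 CCAAT boxes. Hdac4 was lower and Hdac6 higher in CS1, and a relation between boxes and change was not tested. In both windows, the CCAAT boxes lay at nearly the same distances from the start, ending 28 and 146 bases before it in Hdac4 and 27 and 144 bases before it in Hdac6. The Hdac11 window held 1 of each. RefSeq windows were matched by symbol for 7 of the 10 members; counting any window of a gene, 6 of the 7 held a GC box and 5 held a CCAAT box. Hdac8 held no GC box, and its 2 CCAAT matches overlapped on opposite strands. For comparison, 32.7% of 32851 RefSeq promoter windows of 250 bases held a GC box, 33.9% a CCAAT box and 11.01% both. That background is per window, whereas the member counts are per gene, and Hdac7 had 4 windows. GC content was 48.4% in the Hdac8 window and 56.4% to 74.0% in the other member windows. The median over all windows was 52.4%, and the background was not matched for GC content. TATAAA, searched on both strands, was found among the members in the Hdac8 window alone. The palindrome CACGTG was found in none of their windows. Of all windows, 12.4% held the former and 6.02% the latter. A match of letters is a description and not a binding site.

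Apart from the low gene Hdac11, HDAC transcripts differed between the groups by small amounts and in both directions. In CS1, Hdac1, Hdac3, Hdac6 and Hdac11 were higher, Hdac4 and Hdac10 were lower, and Hdac2, Hdac5, Hdac7 and Hdac8 did not pass the test. Thus 6 of 10 members were called, 4 higher and 2 lower, against 67.0%, 35.3% and 31.6% of all tested features. The groups did not overlap for 8 of 10 members, against 84.4% of features. These shares lay near the background. The median absolute log2 fold change was 0.20 over the members and 0.31 over all tested features, and 0 of 10 members reached 1 on the log2(TPM + 1) scale. With a pseudocount of 0.5 in place of 1, the log2 fold change of Hdac11 was 1.31. Hdac11 passed the filter on low values through its CS1 libraries alone and so had to differ. Among the other 9 members, which lay between 8.81 and 113 TPM in every library, 3 were higher and 2 lower.

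**Figure D1:**
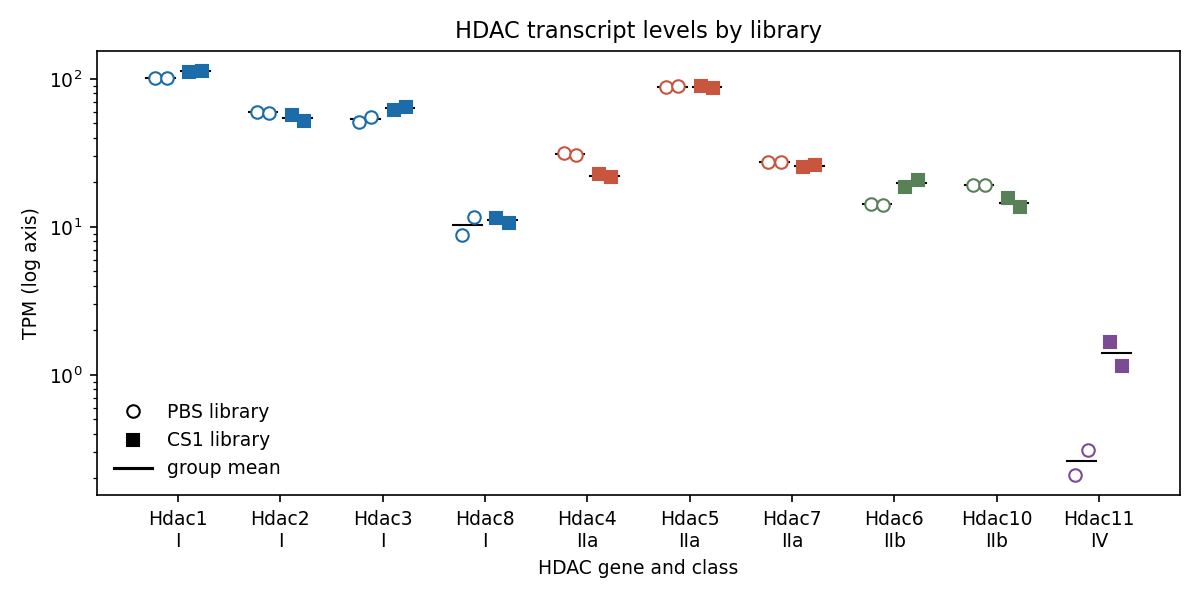
TPM (log axis) of each HDAC gene in each library, ordered by class; open circles are PBS libraries, filled squares CS1 libraries and lines group means. Hdac1 and Hdac5 were the 2 highest members in all 4 libraries, and Hdac11 lay far below the others.

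Class I genes held the largest part of the summed level of the 10 genes. Hdac1 encodes a catalytic subunit shared by the NuRD, SIN3, CoREST and MiDAC complexes. It was measured at 102 and 101 TPM in PBS 1 and 2 and at 111 and 113 TPM in CS1 1 and 2. The groups did not overlap, and the rise of 10.5% was called in limma (log2 fold change 0.14 ± 0.03, SE, adjusted p = 0.0049). With TMM scaling the difference was 0.08 and was not called (adjusted p = 0.0533). Hdac1 has a processed pseudogene, Gm10093, on chromosome 17, which is not listed among the deposited features. How reads matching both were assigned is not known, so the value of Hdac1 is uncertain to that extent.

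Hdac2, a close paralogue of Hdac1 that occupies the same complexes, stood at 59.6 and 58.9 TPM in PBS and at 57.0 and 52.0 TPM in CS1. Both CS1 values were below both PBS values, but the difference did not pass (-0.12 ± 0.05, limma adjusted p = 0.0815). It was called with TMM scaling (-0.18, adjusted p = 0.0157) and without CS1 replicate 1 (-0.19, adjusted p = 0.0229). It was smaller and not called without CS1 replicate 2 (-0.05, adjusted p = 0.301) and after quantile normalization (-0.07, adjusted p = 0.227). The ratio of Hdac1 to Hdac2 was 1.71 in each PBS library, and 1.95 and 2.18 in CS1.

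Hdac3, the catalytic subunit of the NCOR corepressor complex, was measured at 51.0 and 55.4 TPM in PBS and at 61.8 and 64.9 TPM in CS1. The groups were separate, and the rise of 19.1% was called (0.25 ± 0.05, limma adjusted p = 0.00684). Without CS1 replicate 2 the rise was 0.21 with an adjusted p of 0.0564. It also missed the threshold with no filter on low values (adjusted p = 0.112). Hdac8, which deacetylates the cohesin subunit SMC3, was the lowest class I member, with 8.81 and 11.6 TPM in PBS and 11.5 and 10.7 TPM in CS1. The 2 PBS libraries spanned both CS1 values, and the difference did not pass (0.12 ± 0.13, adjusted p = 0.463).

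Hdac4 had the largest fall. This class IIa gene encodes a regulator whose nuclear entry is controlled by phosphorylation. Its level was 31.4 and 30.7 TPM in PBS and 22.6 and 21.6 TPM in CS1, with wide separation between groups and little spread within them. The level dropped by 28.8% (-0.47 ± 0.05, limma adjusted p = 0.000476), and 68.5% of tested features had a smaller absolute fold change. In GENCODE M21, 22.4% of the exonic bases of Hdac4 are shared with the long noncoding RNA Gm26720 on the opposite strand. No source used here says whether counting used strand, so reads of the gene and of Gm26720 cannot be told apart.

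The class IIa genes Hdac5 and Hdac7 differed little. Hdac5, expressed at 87.8 and 89.1 TPM in PBS and at 89.5 and 87.1 TPM in CS1, had the smallest difference of the 10 genes, with overlapping groups (0.00 ± 0.03, adjusted p = 0.963). Hdac7, known for its roles in lymphocyte development and in the endothelium, stood at 27.5 and 27.4 TPM in PBS and at 25.5 and 26.1 TPM in CS1. Both CS1 values were lower, but the difference did not pass (-0.08 ± 0.05, limma adjusted p = 0.157). With TMM scaling it was called (-0.15, adjusted p = 0.0347).

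The class IIb genes moved in opposite directions. Hdac6, the main cytoplasmic tubulin deacetylase, rose from 14.3 and 14.1 TPM in PBS to 18.7 and 20.6 TPM in CS1. This was a rise of 38.5% with no overlap (0.44 ± 0.07, limma adjusted p = 0.00222). Hdac10, a polyamine deacetylase, was measured at 19.2 and 19.1 TPM in PBS and at 15.6 and 13.5 TPM in CS1, and again the groups were separate. It fell by 23.7% (-0.37 ± 0.08, adjusted p = 0.00842), a call that was lost with no filter on low values (adjusted p = 0.105). Hdac10 was the more abundant of the pair in both PBS libraries and Hdac6 in both CS1 libraries, with ratios of Hdac6 to Hdac10 of 0.745 and 0.739 in PBS and of 1.19 and 1.52 in CS1.

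Hdac11, the class IV enzyme, which also removes fatty acyl groups from lysine, was near the lower limit of measurement. It was listed at 0.21 and 0.31 TPM in PBS and at 1.67 and 1.14 TPM in CS1. All 4 values were above the lowest listed value of 0.01, and both CS1 values exceeded both PBS values. Because Hdac11 passed the filter on low values through its CS1 libraries alone, this separation and its direction were fixed by the filter. The ratio of means was 5.40 and the log2 fold change 0.92 ± 0.18 (limma adjusted p = 0.00495). Of tested features 90.5% had a smaller absolute fold change. The adjusted p and this rank carry the same limit and are no separate support for a difference. The size depended on the processing, at 2.06 with a pseudocount of 0.1, 1.31 with a pseudocount of 0.5 and 0.54 after quantile normalization. The call was lost with no filter (adjusted p = 0.0566). Without counts it is unknown how many reads these values rest on. In GENCODE M21, 15.4% of its exonic bases are shared with Gm44002 and 2.49% with Gm14573, both on the opposite strand.

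**Figure D2:**
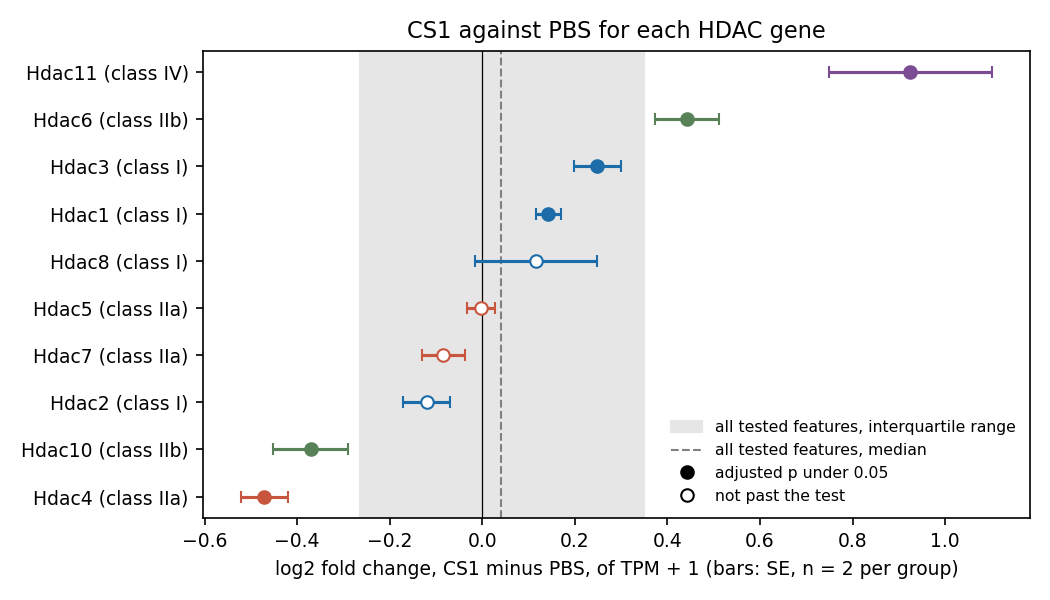
Log2 fold change of TPM + 1, CS1 minus PBS, with SE for each HDAC gene (n = 2 per group); filled points passed an adjusted p under 0.05, the grey band spans the quartiles of all tested features (-0.26 to 0.35) and the dashed line is their median (0.04). Hdac11, Hdac6, Hdac4 and Hdac10 lay outside the band, and Hdac11 passed the filter on low values through CS1 alone.

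The order of levels among the 10 genes changed between groups at 3 places. In PBS the genes ranked, from highest to lowest mean TPM, Hdac1, Hdac5, Hdac2, Hdac3, Hdac4, Hdac7, Hdac10, Hdac6, Hdac8 and Hdac11. In CS1, Hdac3 stood above Hdac2, Hdac7 above Hdac4 and Hdac6 above Hdac10, while the other places were the same. The library values of neighbours in the order did not overlap in either group, although with 2 libraries per group this is a weak criterion. Within class IIa, the ratio of Hdac5 to Hdac4 was 2.80 and 2.91 in PBS and 3.96 and 4.04 in CS1. These gene pairs were chosen after their values were seen, and no test is given for them.

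**Figure D3:**
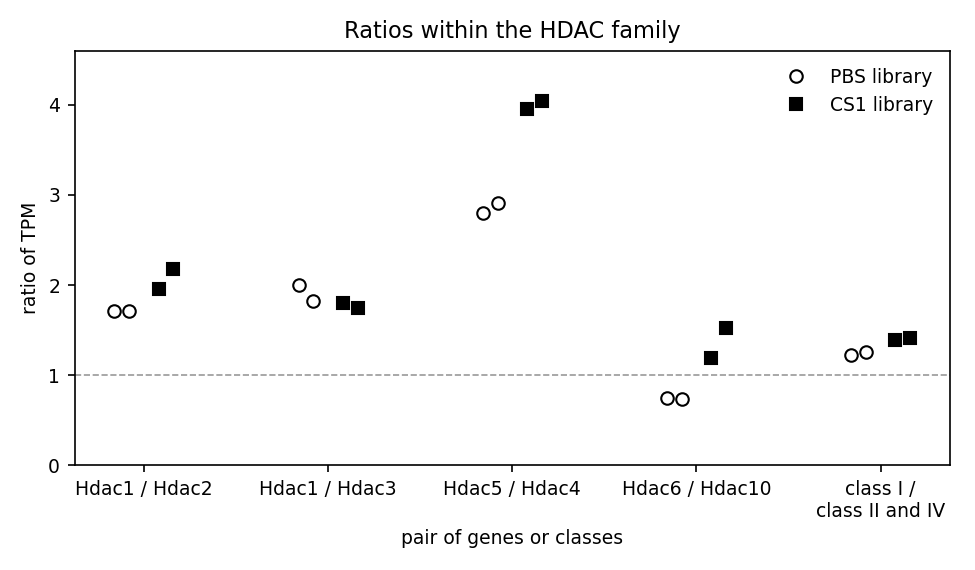
Ratios of TPM within the HDAC family by library, with open circles for PBS and filled squares for CS1; the dashed line marks equal levels. The ratio of Hdac6 to Hdac10 lay below the line in both PBS libraries and above it in both CS1 libraries, and that of Hdac5 to Hdac4 was higher in both CS1 libraries.

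Class I was compared with classes II and IV. The summed level of the 4 class I genes was 221 and 227 TPM in PBS and 242 and 241 TPM in CS1, while the 6 genes of class II and IV summed to 180.2 and 181 TPM in PBS and to 174 and 170.1 TPM in CS1. Neither sum overlapped between groups. Class I accordingly made up 55.1% and 55.7% of the summed HDAC level in PBS (mean 55.4 ± 0.395, SD, n = 2) and 58.2% and 58.6% in CS1 (58.4 ± 0.277, n = 2). The share of the 3 class IIa genes was 36.5% and 36.1% in PBS and 33.1% and 32.8% in CS1. The class IIb share overlapped between groups, at 8.32% and 8.13% in PBS against 8.27% and 8.31% in CS1, since the rise of Hdac6 and the fall of Hdac10 were of similar size in TPM. The sum over all 10 genes was 402 and 408 TPM in PBS and 415 and 411 TPM in CS1.

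**Figure D4:**
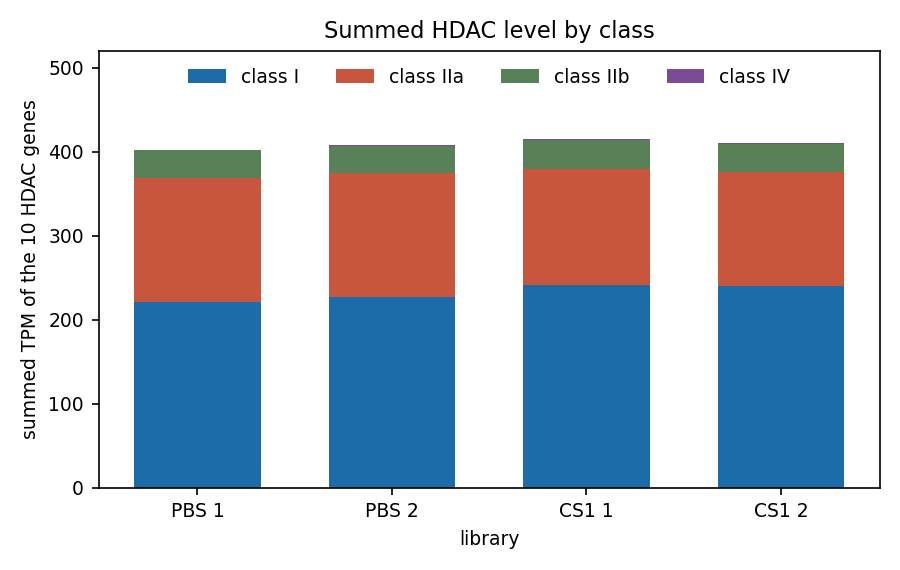
Summed TPM of the 10 HDAC genes in each library, stacked by class; class IV (Hdac11) is too low to show clearly. The class I part was higher and the class IIa part lower in both CS1 libraries than in either PBS library.

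Counted by gene, 2 of 4 class I members were higher in CS1 and 0 lower, with log2 fold changes from -0.12 to 0.25 and a median of 0.13. That median was 0.0421 without PBS replicate 1, 0.2166 without PBS replicate 2 and 0.07 with TMM scaling. Of the 6 class II and IV members 2 were higher and 2 lower, from -0.47 to 0.92 with a median of -0.04, beside a median of 0.04 over all tested features. Without Hdac11, which had to differ, 1 of 5 was higher and 2 lower, with a median of -0.08. The class contrast depended on the measure. When each gene counted equally, the mean log2(TPM + 1) of class I minus that of class II and IV was 1.26 and 1.36 in PBS and 1.31 and 1.35 in CS1, and the groups overlapped.

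The cells' myeloid identity was checked on defining markers. Ptprc, which encodes CD45, lay between 583 and 597 TPM in PBS and between 315 and 323 TPM in CS1, and the myeloid transcription factor gene Spi1 was at 704 TPM or more in every library. Both were called lower, at -0.89 and -0.26. Of the 10 leukaemia and myeloid identity genes 5 were higher (Mpo, Kit, Hoxa9, Meis1 and Cd33) and 5 lower. Levels of maturation markers moved with the groups. The summed level of 6 promyelocyte granule genes was 1437 to 1448 TPM in PBS and 5681 to 5749 TPM in CS1, with 6 of 6 higher, and that of 9 late neutrophil genes 6926 to 6990 and 19833 to 19861 TPM, with 6 higher and 3 lower. The summed level of 9 monocyte and macrophage genes was 15348 to 15488 TPM in PBS and 7451 to 7462 TPM in CS1. Of 8 tested, 6 were lower and 1 higher. Lyz2 made up most of this sum, at 13128 and 13256 TPM in PBS and 6193 and 6222 TPM in CS1. In the late neutrophil list S100a8 and S100a9 made up most of the sum, and the genes that were lower were Ltf, Mmp8 and Cxcr2.

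Markers of other cell types were low. The sums were 65.6 to 66.2 TPM in PBS and 34.5 to 36.4 TPM in CS1 for B and plasma cells, 12.3 to 13.3 and 7.62 to 7.93 TPM for T cells, and 18.9 to 20.9 and 48.1 to 55.8 TPM for NK cells. For mast cells and basophils they were 17.4 to 20.2 and 65.03 to 65.8 TPM, for erythroid cells 19.1 to 19.6 and 36.4 to 42.7 TPM, for megakaryocytes and platelets 4.56 to 5.51 and 7.42 to 9.78 TPM, and for stroma and endothelium 50.5 to 51.9 and 43.9 to 46.6 TPM. Of the B and plasma cell markers 6 of 7 tested were lower, and of the T cell markers 2 of 4. Of 3 tested NK cell markers, Nkg7 and Klrd1 were higher and Gzma lower, and Nkg7 made up most of the NK cell sum, at 11.3 and 9.48 TPM in PBS and 36.7 and 42.6 TPM in CS1. The NK cell receptor gene Ncr1 was listed at 0.01 in both CS1 libraries. Of 4 tested mast cell and basophil markers 3 were higher and 1 lower. Mcpt8 made up most of their sum in CS1, at 8.05 and 6.85 TPM in PBS and 52.4 and 49.4 TPM in CS1. Of 3 tested stroma and endothelium markers 1 was higher and 1 lower. Pecam1 made up most of that sum, at 45.1 and 43.4 TPM in PBS and 37.8 and 35.7 TPM in CS1. Gzma and the plasma cell gene Mzb1 passed the filter through PBS alone and the globin gene Hbb-bs through CS1 alone, so each had to differ. Of 3 tested erythroid genes Hbb-bs alone was called. The globin genes Hba-a1 and Hba-a2 were listed at 26.1 and 0.01 TPM and at 0.01 and 19.3 TPM in CS1 1 and 2. Such gene copies can share reads, so the erythroid values are uncertain. Listed at 0.01 in all 4 libraries were the platelet genes Pf4 and Ppbp and the mast cell gene Fcer1a. Of 8 proliferation genes, 4 were higher and 3 lower. The part of these shifts in the HDAC differences was not tested, and in bulk RNA fewer cells of a type and less RNA per cell cannot be told apart.

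HDAC partner genes were described from 13 lists covering complexes, substrates and counteracting enzymes. Together they held 126 tested genes beside the HDACs, of which 38 were higher and 49 lower in CS1, against 35.3% and 31.6% of all tested features. Of the 38, Rcor2, Azin2 and Sat2 passed the filter through CS1 alone and had to be higher. In the NuRD complex, which joins Hdac1 and Hdac2 to a chromatin remodeller, 3 of 11 genes were higher and 6 lower (median -0.12). Its remodeller subunit gene Chd3 rose from 12.2 and 13.2 to 22.4 and 22.8 TPM (0.79), while the more abundant Chd4, at 155 and 157 TPM in PBS against 159 and 161 TPM in CS1, missed the threshold. The NuRD scaffold genes Gatad2b and Gatad2a fell by 0.39 and 0.18, and Mbd3 rose by 0.36. The 6 lower calls in NuRD were small and numbered 1 to 6 over the alternatives, with 1 when no filter was used and 2 without PBS replicate 1; that of Gatad2a was also lost without CS1 replicate 1. Without CS1 replicate 2 they numbered 3. In the SIN3 complex 4 of 13 genes were higher and 1 lower (median 0.05), with Ing2, a reader of methylated histone tails, and Arid4a at 0.57 and 0.31. The gene that was lower was Suds3, at -0.11, a call lost in 7 of 12 alternatives, among them those without PBS replicate 1, CS1 replicate 1 or CS1 replicate 2.

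In the CoREST complex, which pairs Hdac1 and Hdac2 with the histone demethylase Kdm1a, 4 of 9 genes were higher and 2 lower (median 0.09), or 3 of 8 higher without Rcor2. Zmym3 rose from 11.7 and 11.3 to 20.9 and 21.8 TPM (0.84) and Hmg20b by 0.58, while the scaffold genes Rcor1 and Phf21a fell by 0.36 and 0.19. The call of Phf21a was lost without PBS replicate 2 and without CS1 replicate 1. In the NCOR complex, which activates Hdac3, the scaffold gene Ncor1 went from 106 and 108 TPM in PBS to 94.8 and 91.8 TPM in CS1, a called fall (-0.19 ± 0.03, limma adjusted p = 0.00259). Tbl1xr1 was also lower (-0.27) and Gps2 higher (0.17). In MiDAC, Dnttip1 was higher (0.22), though not without CS1 replicate 2, and Elmsan1 was lower (-0.44).

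Among the partners of class IIa HDACs, 4 of 13 tested genes were higher and 6 lower (median -0.02). The MEF2 factors, which class IIa HDACs repress, were split. Mef2c rose from 73.6 and 75.8 to 106 and 105 TPM (0.49), whereas Mef2d fell from 109 in each PBS library to 79.7 and 78.8 TPM (-0.45) and Mef2a had a log2 fold change of -0.36. Of the kinases that phosphorylate class IIa HDACs, Camk2d went from 17.6 TPM in each PBS library to 8.71 and 9.23 TPM (-0.90), and Prkd2 was higher (0.36). Genes of the YWHA family, whose proteins hold phosphorylated class IIa HDACs in the cytoplasm, were lower in 6 of 7 cases, with a list median of -0.49. Ywhag and Ywhab had log2 fold changes of -0.62 and -0.61. Sfn was the exception, rising from 8.20 and 9.10 to 18.8 and 20.6 TPM, a ratio of means of 2.28.

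The sirtuins, the NAD-dependent class III deacetylases, comprised 4 higher and 1 lower of 7 genes (median 0.36), with 1 higher when no filter was used. The mitochondrial members Sirt3 and Sirt4 rose by 0.66 and 0.59, and Sirt7, a nucleolar member and the most abundant one in PBS, fell from 211 and 202 to 115 and 118 TPM (-0.82). Among the histone acetyltransferases and their coactivators, which oppose HDACs, 4 of 14 were higher and 7 lower (median -0.08). The higher calls numbered 2 without PBS replicate 1, without CS1 replicate 1, with TMM scaling or with no variance trend, and 1 with no filter. Ep300 went from 108 TPM in each PBS library to 74.3 and 71.2 TPM (-0.56) and Kat6a from 58.5 and 58.6 to 39.8 and 38.8 TPM (-0.56). Crebbp, the close relative of Ep300, was measured at 50.3 and 48.9 TPM in PBS against 51.5 and 50.6 TPM in CS1, a difference that missed the threshold. Kat2a and Kat8 were higher, at 0.33 and 0.28. The call of Kat8 was lost in 5 alternatives, including those without PBS replicate 1 or CS1 replicate 1.

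Bromodomain proteins bind acetylated lysine, and 4 of 11 tested genes of this kind were higher and 2 lower (median 0.01). Baz1a, a subunit of chromatin remodelling complexes, rose from 117 and 116 to 226 and 218 TPM (0.92) and Brd3 had a log2 fold change of 0.42. Brd1 and Brd2 were lower, at -0.11 and -0.07. Each of these last calls was lost in 8 of 12 alternatives, including the omission of any 1 library.

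Genes around the substrates of single HDACs were also read. Of 12 cohesin genes 1 was higher and 7 were lower (median -0.20). The gene that was higher was Smc3, whose protein Hdac8 deacetylates, at 61.6 and 64.7 TPM in PBS and 74.1 and 70.3 TPM in CS1 (0.19), a call lost without PBS replicate 1 or CS1 replicate 1, while Smc1a fell by 0.42 and Pds5a by 0.35. Among 10 tested HDAC6 substrates and aggresome partners, 1 was higher and 4 lower (median -0.04), with the tubulin gene Tuba4a at 0.46, Tuba1a at -0.42 and Bag3 at -0.23. After quantile normalization 4 were higher and 3 lower, and without PBS replicate 2 the higher calls numbered 2. Tubulin genes are similar in sequence, some more than others, and can share reads, so their single values are uncertain. Of 11 tested polyamine genes 6 were higher and 3 lower (median 0.14). Without Azin2 and Sat2, 4 of 9 were higher and 3 lower (median 0.04), and with no filter the higher calls numbered 3. They numbered 4 without PBS replicate 1 or CS1 replicate 1. Paox, an oxidase of acetylated polyamines, rose from 29.71 and 29.99 to 41.7 and 42.0 TPM (0.47), and Oaz1 had a log2 fold change of 0.43. Smox, the spermine oxidase gene, fell from 69.6 and 68.1 to 36.2 and 37.5 TPM (-0.88) and Azin1 by 0.67.

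**Figure D5:**
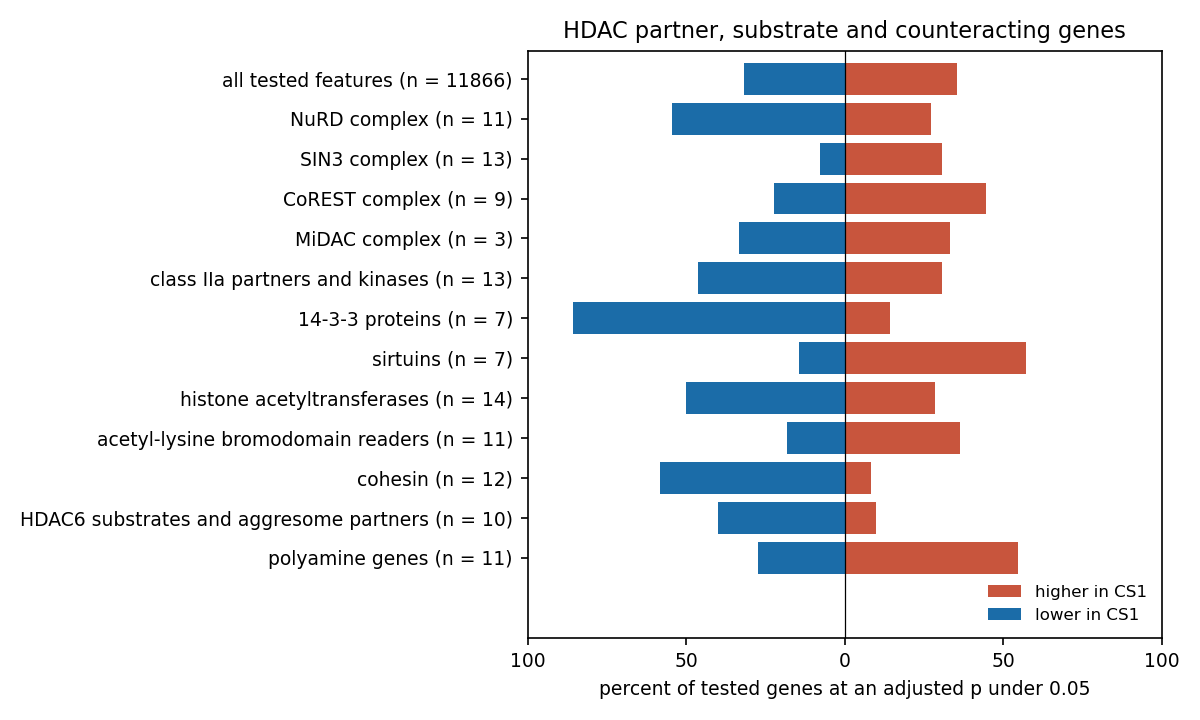
Percent of tested genes in 12 of the partner lists at an adjusted p under 0.05, drawn to the right for higher in CS1 and to the left for lower; the top bar shows all 11866 tested features (35.3% and 31.6%). Genes of the YWHA family (14-3-3 proteins) were lower in 6 of 7 cases and those of cohesin in 7 of 12.

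Across the 4 libraries, the partner genes whose centred log2(TPM + 1) values lay nearest to those of Hdac11, the called member with the largest fold change, were Azin2, Sat2 and Baz1a, with Euclidean distances of 0.11, 0.17 and 0.21 among 135 genes compared. Azin2 and Sat2 were low genes too, at 0.70 and 0.91 TPM and 0.15 and 0.16 TPM in PBS and at 3.15 and 2.18 TPM and 1.45 and 1.22 TPM in CS1. Like Hdac11, Azin2 and Sat2 passed the filter through CS1 alone, so each had to be higher there. Their nearness to Hdac11 is therefore no separate result. A likeness over 4 libraries in 2 groups mostly restates the size of the group difference.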

How the data were processed

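The authors deposited 1 table with a column per library. Its deposited values were taken as TPM. Neither header nor labels state this unit, which was inferred from the column sums, the decimals and the mention of RSEM. STAR, RSEM and the build mm10 appear in the submitters' processing notes, with no version or role, and no annotation is named there. The lowest listed value, 0.01, stands where 0 would be expected.

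From these values log2(TPM + 1) was computed and limma 3.58.1 (R 4.3.3) was fitted with the variance trend, two-sided, as stated in the report. The fit was tested on simulated data. With 2 against 2 libraries an exact permutation test cannot give a p under 0.333, so no such test was used. The design allowed for counts or normalised values, and the latter branch was used. Coordinates and exon overlaps are from GENCODE M21 (GRCm38, the assembly of mm10), promoters from RefSeq; genes were matched by symbol.

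The members and lists were chosen with earlier results of these data known. Named genes were the 10 members, up to 2 highest and 2 lowest called genes per partner list (separate groups, at least 5 TPM in the higher mean), and the 3 genes nearest to the called member with the largest change. Ncor1, Mef2a, Chd4, Crebbp, Ptprc, Spi1, Kdm1a, Rcor2 and single marker genes were named outside this rule, with values known. Values of 2 list genes and the counts of the NCOR list are not reported here. Alternatives were other scalings, pseudocounts of 0.1 and 0.5, no filter, a filter at 5 TPM, no variance trend, a replicate block and leaving out each library. Counts without genes that passed the filter through 1 group alone were chosen after seeing the data.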

Additional observations from a re-analysis of the deposited data

How the results depend on the processing

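Hdac4 and Hdac6 kept direction and call in all 12 alternatives, with log2 fold changes from -0.53 to -0.44 and from 0.36 to 0.51. The members called higher numbered 2 and those called lower 1 with no filter, against 4 and 2, and 4 were lower with TMM scaling. Leaving out 1 library gave 3 to 4 higher and 2 to 3 lower. Hdac5, never called, was 0.0719 after quantile normalization and ranged from -0.0213 to 0.0176 with 1 library left out (0.0176 without CS1 replicate 2). Hdac8, also never called, was -0.0016 after quantile normalization and ranged from -0.0657 (without PBS replicate 1) to 0.2988 (without PBS replicate 2). The class II and IV median was -0.11 with TMM scaling, -0.0127 after quantile normalization and -0.0846 with a filter at 5 TPM, which removed Hdac11, and likewise without Hdac11. The class I share was 2.97 percentage points higher in CS1 (2.69 to 3.25 with 1 library left out), while the equally weighted log2 contrast was 0.0238 higher. Apart from the filter, the cause of these shifts was not tested. With the replicate block 4 members were higher and 2 lower, as without it, and 4110 features higher and 3640 lower against 4194 and 3755. The replicate numbers share no stated origin, and deviations of same-numbered libraries correlated at 0.0219. Over the features, 2797 were higher and 2758 lower with no filter. Of 50 partner and marker genes named with a call, 36 kept it in every alternative run and 6 lost it with no filter alone. The unknown depth limits what can be said of Hdac11.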

Other observations

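Of the 20 tested protein-coding genes nearest to the HDAC genes, on either side, 10 were higher and 5 lower, so that 15 of 20 were called against 67.0% of all tested features. Their median absolute log2 fold change was 0.37, beside 0.31 over all tested features. These values lay near the background, and the neighbours named here include those with the largest changes. Marcksl1, a gene for an actin-binding substrate of protein kinase C that lies 119 bases from Hdac1 on chromosome 4, rose from 18.1 to 54.5 TPM on average (log2 fold change 1.54, limma adjusted p = 5.64e-06), beside 0.14 for Hdac1. Marcks, a member of the same gene family, was the nearest tested gene at higher coordinates than Hdac2, 131486 bases away. It fell from 11.8 to 2.59 TPM (-1.84, limma adjusted p = 2.62e-05), beside -0.12 for Hdac2. Diaph1, a formin gene 368 bases from Hdac3, fell from 284 to 167 TPM (-0.76, adjusted p = 7.80e-06), while Hdac3 rose. On the X chromosome the nearest tested neighbours of Hdac6 were the mitochondrial import gene Timm17b and the histone methyltransferase gene Suv39h1. They lay 21769 and 113282 bases away and were higher, at 0.44 and 0.55. Tubgcp6, 195 bases from Hdac10, was not called, and both nearest tested neighbours of Hdac4 were higher while Hdac4 fell. These genes were named for their position after values were seen, and distances are from GENCODE M21.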
